A study of Mus musculus with 12 samples.

Results

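Tdpoz1, Usp17la, Pramel6 and Pramel7 were followed in 12 single mouse blastomeres, the 2 cells of each of 6 embryos split at the 2-cell stage. Members were the non-control probes of the array whose gene name or RefSeq accession is one of 7 genes, Tdpoz1 to Tdpoz4, Usp17la (Dub1 in the files), Pramel6 and Pramel7. The rule found 4 of the 7 genes, through 6 of 41174 probes: 3 for Tdpoz1 and 1 for each of the other genes. Tdpoz2, Tdpoz3 and Tdpoz4 had no matching probe and were not analysed here.

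All embryos came from natural matings of CF-1 mice, an outbred stock, and were flushed from the oviduct about 36 h post coitus. Experiment 2 held 3 embryos, named pairs D, G and H, and experiment 1 another 3, named pairs D, I and L. The embryos carried no treatment or allele that the labels name, and the labels do not say what cell numbers 1 and 2 stand for. After 2 rounds of amplification each cell's RNA was measured on its own Agilent array of the mouse genome, so precision is limited by 2 cells an embryo and 3 embryos an experiment.

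The mouse embryo starts to transcribe its own genome in strength at the 2-cell stage, and families of tandemly copied genes are among those then read. Tdpoz genes encode proteins with a TRAF (MATH) domain and a POZ (BTB) domain, the arrangement of Spop, which brings substrates to the Cul3 ubiquitin ligase. Usp17la, first described as Dub1, is a deubiquitinating enzyme known in mouse blood cells as an immediate early gene of interleukin-3. Pramel genes encode leucine-rich repeat proteins of the PRAME family, read in germ cells and early embryos. Pramel7 is known in mouse embryonic stem cells as a target of the LIF and Stat3 pathway that directs the DNA methylation factor Uhrf1 to degradation by a Cul2 ligase.

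In the RefSeq annotation of assembly GRCm38.p6 each family sits in a cluster. Tdpoz1 (chr3:93669333-93676283) is one of 8 Tdpoz genes within 1003.82 kb of chromosome 3. Usp17la (chr7:104857016-104862667) is one of 6 Usp17l genes, 5 of them protein-coding, within 1612.58 kb of chromosome 7. Pramel6 (chr2:87506565-87510865) and Pramel7 (chr2:87489088-87492418) are neighbours within 21.778 kb of chromosome 2.

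The RefSeq promoter windows, 250 bases before to 50 after the annotated start, are printed for Tdpoz1, because its level differed most between the experiments, and for Usp17la beside its close copy Usp17lb, to show how alike the copies are. Tdpoz1 is read from the minus strand at chr3:93676234-93676533, Usp17la from the plus strand at chr7:104856766-104857065 and Usp17lb from the minus strand at chr7:104842534-104842833. Capitals mark matches, on either strand, to the box that binds TATA-binding protein (letters TATAAA), to the box that binds NF-Y (letters CCAAT), or to sites of the OTX and OBOX type (letters GGATTA).
Tdpoz1: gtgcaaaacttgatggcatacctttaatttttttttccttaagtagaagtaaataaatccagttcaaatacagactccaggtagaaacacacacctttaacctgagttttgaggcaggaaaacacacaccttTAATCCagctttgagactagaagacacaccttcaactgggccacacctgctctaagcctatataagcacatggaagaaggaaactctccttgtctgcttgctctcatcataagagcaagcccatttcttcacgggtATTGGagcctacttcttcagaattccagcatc
Usp17la: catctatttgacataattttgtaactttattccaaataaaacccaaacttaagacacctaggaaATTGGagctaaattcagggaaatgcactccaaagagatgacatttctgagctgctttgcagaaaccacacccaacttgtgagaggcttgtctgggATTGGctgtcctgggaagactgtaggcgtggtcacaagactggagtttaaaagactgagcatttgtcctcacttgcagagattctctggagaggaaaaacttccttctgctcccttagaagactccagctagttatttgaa
Usp17lb: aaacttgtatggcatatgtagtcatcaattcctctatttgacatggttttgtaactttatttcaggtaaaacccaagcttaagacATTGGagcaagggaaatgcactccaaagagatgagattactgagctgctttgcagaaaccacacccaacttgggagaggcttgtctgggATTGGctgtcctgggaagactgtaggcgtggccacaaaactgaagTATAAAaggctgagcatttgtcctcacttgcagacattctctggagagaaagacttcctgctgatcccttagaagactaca

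The Usp17la and Usp17lb windows held 249 identical bases, 92.2% of their 270 aligned columns without gaps and 83% of the 300 bases. The same alignment of unlike windows among 5 genes (these 3, Pramel6 and Pramel7) gave 57.6 to 69.2% of columns without gaps. Of the 300 bases that was 51.3 to 56.7%. Usp17la held CCAAT, reversed, 91 and 186 bases before the start. Usp17lb held it 76 and 165 bases before, and also TATAAA 31 bases before the start. Tdpoz1 held GGATTA, reversed, 118 bases before the start and CCAAT, reversed, at base 19 after it. Pramel6 held CCAAT 146 bases before the start and, reversed, 81 before it, and Pramel7 held none of these matches. The motifs do not overlap one another in these windows and are common letters: CCAAT was in 37.4%, TATAAA in 13.6% and GGATTA in 7.06% of all 32851 promoter windows of this length. GGGCGG (GC box, in 35.7% of all windows) had no match in the 5 windows. The motifs were chosen after the sequences had been seen, and a match is a description of letters.

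Levels are log2 of the scanner's processed signal, divided by the array's 75th percentile over 5858 probes well above background on all 12 arrays and raised to a common floor of -4.12. A probe is compared with itself across cells, never with another probe, and a level is relative to the other transcripts on its array. The share of spots well above background was 31.2 to 78.8% in experiment 2 and 22.1 to 41.7% in experiment 1. Experiment 2 was read in Cy3 and experiment 1 in Cy5, on separate slides, so experiment, dye, scan and slide cannot be told apart. Oocyte genes were read in both experiments: the summed scaled level of 9 with a probe was 45.9 to 69.1 in experiment 2 and 43.7 to 77.9 in experiment 1. Bright probes carry such a sum, and Nlrp5 was well above background on only 4 arrays. Of 8 tested, 0 were called higher in experiment 2 and 1 lower, Zar1 (limma adjusted p 0.00701), where 4.15% of all tested probes were called lower. Both genes were named after their values were seen. The summed levels of markers of oviduct epithelium, of stroma, and of macrophages and blood were far higher in experiment 1. They are given beside the experiment comparison, with the markers that did not pass. Those of cumulus and granulosa cells and of sperm were not.

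Of the 6 member probes, the Usp17la, Pramel7 and AK033449-based Tdpoz1 probes were well above background on all 12 arrays, and none was saturated. The Pramel6 probe was so on 11 arrays, missing pair D cell 1 of experiment 1. The other Tdpoz1 probes, both designed to NM_148949, were dim. One (A_52_P378157) was well above background on 6 arrays, 4 of experiment 2 and 2 of experiment 1, and the other (A_52_P332044) on 2 arrays, pair D cell 1 and pair H cell 1 of experiment 2. Tests took 16694 probes, those with a signal well above background on 6 arrays or more, so 5 member probes were tested and the dimmest was not. No member probe was well above background in the unused Cy3 channel of experiment 1.

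**Figure D1:**
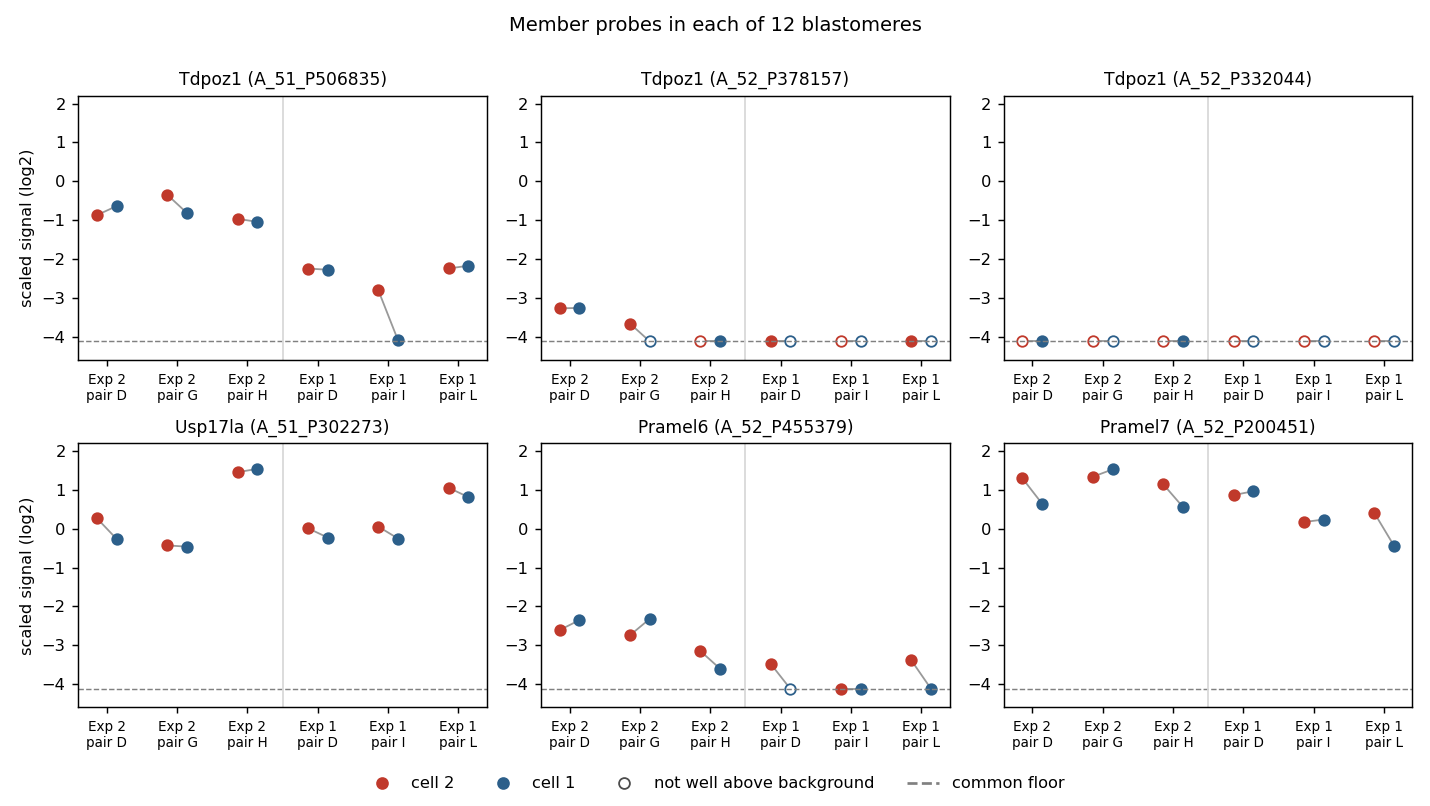
Scaled signal (log2, y axis) of the 6 member probes in each of 12 blastomeres, by embryo (x axis), experiment 2 left of experiment 1. Grey lines join twin cells, open circles are cells not well above background and the dashed line is the floor at -4.12. The AK033449-based Tdpoz1 probe (A_51_P506835) lay between -1.04 and -0.35 in experiment 2, above every cell of experiment 1, while Usp17la was highest in pairs H and L.

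Usp17la was the member that differed between embryos. In experiment 2 its log2 level was 1.46 in cell 2 and 1.54 in cell 1 of pair H. Pair D had 0.27 in cell 2 and -0.26 in cell 1, and pair G had -0.43 in cell 2 and -0.46 in cell 1. Both cells of pair H were above the 4 other cells of that experiment, and the cells of pairs D and G did not overlap either. The share of all tested probes with such gaps was not counted.

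In experiment 1 the Usp17la level was 1.06 in cell 2 and 0.82 in cell 1 of pair L. Pair I had 0.06 in cell 2 and -0.25 in cell 1, and pair D had 0.02 in cell 2 and -0.23 in cell 1. Both cells of pair L were above the 4 others, and pairs I and D overlapped. Such gaps were not particular to Usp17la. In Pramel7, which did not pass between embryos, both cells of pair G were above the 4 others of experiment 2. Both Pramel7 cells of pair D were likewise above the 4 others of experiment 1.

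The embryo means of Usp17la give the order within each experiment. In experiment 2 pair H was highest, then pair D at 0.00 ± 0.38 and pair G at -0.44 ± 0.02 (SD, n = 2 cells each). Pair H was 3.85-fold above pair G (log2 difference 1.94, SE 0.22) and 2.82-fold above pair D (SE of the log2 difference 0.22). In experiment 1 the mean was 0.94 ± 0.17 in pair L, -0.10 ± 0.22 in pair I and -0.11 ± 0.17 in pair D, so that L was 2.05-fold above I and 2.06-fold above D. Pairs I and D differed by 0.01, less than the spread between their cells.

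The limma moderated F test over embryos of the same experiment gave Usp17la an adjusted p of 0.0430, after Benjamini-Hochberg adjustment over all tested probes. It was 1 of 5 member probes to pass, and 1.4% of all tested probes passed. The adjusted p of the other member probes was 0.106 (Tdpoz1, A_52_P378157), 0.182 (Tdpoz1, A_51_P506835), 0.246 (Pramel7) and 0.257 (Pramel6), of which A_52_P378157 passed in 4 of 21 alternatives. The call for Usp17la lay near the threshold: it held in 12 of 24 alternative settings (adjusted p 0.00355 to 0.138), and was lost without either cell of pair H (0.128 without cell 1 and 0.131 without cell 2). It was also lost without cell 1 or cell 2 of pair D (0.0710 and 0.0529) or cell 1 of pair I (0.0514) of experiment 1. Pair H stayed above pair G in all 24, by 1.90 to 2.77 log2 units, the highest with the percentile taken over all probes. Pairs H and G shared a slide, and pairs L and I shared another, but in the fit within these shared slides Usp17la did not pass.

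The twin cells of an embryo were close in Usp17la. The SD between twins was 0.205 log2 units over 6 embryos, against an SD of 0.835 between the embryo means within experiments. The F test weighs these same spreads, so they describe its result and do not add to it. Over the tested probes the medians of these measures were 0.464 and 0.477. For the other members the twin SD and the between-embryo SD were 0.403 and 0.517 (Tdpoz1, A_51_P506835), 0.358 and 0.405 (Pramel7) and 0.342 and 0.383 (Pramel6). In Pramel6 and in Tdpoz1 A_52_P378157 (0.133 and 0.314) cells at the floor lower both measures.

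**Figure D2:**
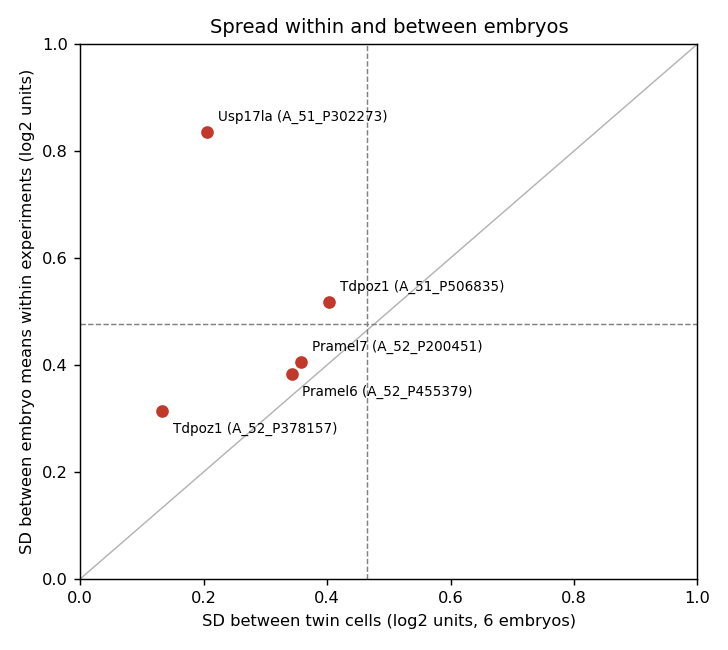
SD between embryo means within experiments (log2 units, y axis) against SD between twin cells (log2 units, x axis) for the 5 tested member probes. Dashed lines are the medians over 16694 tested probes (0.464 and 0.477) and the grey line marks equal values. Usp17la sits far above the line, at 0.205 between twins and 0.835 between embryos.

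Neither of the 2 tested Usp17l relatives passed between embryos in limma (adjusted p 0.784 for Usp17lb and 0.165 for Usp17lc). Usp17lb, the copy with the alike promoter, was well above background on all 12 arrays, at -3.12 to -1.97 in experiment 2 and -4.12 (the floor) to -3.20 in experiment 1. Its means in experiment 2 were -3.06 (pair H), -2.85 (pair D) and -2.44 (pair G). Usp17lc was at the floor in 9 of 12 cells. Whether the Usp17la probe also binds its copies was not tested, because probe sequences were not used here.

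Genes of the interleukin-3 pathway and of known Usp17 substrates were listed beside Usp17la. Of 9 tested, 1 passed between embryos, where 1.4% of all tested probes passed, and 0 between experiments in the limma tests. That 1 gene was Il3ra, the interleukin-3 receptor chain (adjusted p 0.0456, name chosen after its values were seen). Il3ra was well above background on all 12 arrays, so a cell at the common floor still had a signal. It was at the floor in both cells of pair H and of pair I, and averaged -2.72 in pair D of experiment 2. Twins raised to the floor have equal values, which lowers the twin spread in its F test. In experiment 1 it averaged -3.02 in pair L and -3.04 in pair D. Of the embryos highest in Usp17la, pair H thus had Il3ra at the floor and pair L had it above the floor.

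Between the experiments, Tdpoz1 differed most among the members. In experiment 2, cells 2 and 1 had levels of -0.87 and -0.64 (pair D), -0.35 and -0.82 (pair G), and -0.97 and -1.04 (pair H) on its AK033449-based probe (A_51_P506835). In experiment 1, cells 2 and 1 had -2.25 and -2.28 (pair D), -2.80 and -4.09 (pair I), and -2.24 and -2.17 (pair L). All 6 cells of experiment 2 were above all 6 of experiment 1, which held for 3.7% of tested probes. The means were -0.78 ± 0.25 in experiment 2 and -2.64 ± 0.75 in experiment 1 (SD, n = 6 each), a 3.63-fold difference (1.86, SE 0.36, 95% interval 1.08 to 2.64). The limma test with embryo as a random block gave an adjusted p of 0.00837.

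Pair I cell 1 of experiment 1, at -4.09, lay far below the other cells of that experiment, of which the lowest was its twin at -2.80. Without it the difference was 1.60 (limma adjusted p 0.00121). The call held in 21 of 24 alternatives. It was lost with the percentile over all probes (0.238), with a floor per array (0.0628) and with the 3 embryo means against 3 (0.0573), while the difference stayed at 1.46 to 2.05 in all 24.

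The dim Tdpoz1 probes add little. A_52_P378157 had -3.27 and -3.26 in cells 2 and 1 of pair D of experiment 2 and -3.66 in pair G cell 2, and the other 9 cells, all 6 of experiment 1 among them, were at the floor. Its difference of 0.36 between experiments (SE 0.20) had a limma adjusted p of 0.358. A_52_P332044 was at the floor in all 12 cells. The probes of Tdpoz1 thus disagree on whether its transcript is well measured, and the copies in the cluster may share sequence with any of them, which was not tested.

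Pramel6 was also higher in experiment 2. In experiment 2 its level in cells 2 and 1 was -2.61 and -2.35 (pair D), -2.74 and -2.32 (pair G), and -3.15 and -3.60 (pair H). In experiment 1 it had -3.48 in pair D cell 2 and -3.39 in pair L cell 2, and the other 4 cells were at the floor, 1 of them not well above background. In all, 5 of the 6 cells of experiment 2 were above all of experiment 1. The share of all tested probes with 5 such cells was not counted.

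The Pramel6 means were -2.79 ± 0.50 in experiment 2 and -3.89 ± 0.36 in experiment 1 (SD, n = 6 each), a 2.14-fold difference (1.10, SE 0.29, limma adjusted p 0.0392). With a lower floor the experiment 1 mean was -4.35 and the difference 2.94-fold, but the call was lost (limma adjusted p 0.144). The call held in 5 of 23 alternatives (adjusted p 0.0149 to 0.483), with the difference above 0 in all of them. With 1 cell left out it held in 4 of 12 fits, those without cell 2 of pair D or of pair L of experiment 1 or either cell of pair H. In the other 8 the adjusted p was 0.0526 to 0.114, the highest without pair L cell 1.

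Pramel7 was well above background in every cell. Cells 2 and 1 had levels of 1.30 and 0.64 (pair D), 1.34 and 1.53 (pair G), and 1.15 and 0.56 (pair H) in experiment 2. In experiment 1 they had 0.87 and 0.97 (pair D), 0.17 and 0.24 (pair I), and 0.41 and -0.43 (pair L). The experiments overlapped, with 4 cells of experiment 2 above all of experiment 1, a count not taken over all tested probes. The means were 1.09 ± 0.39 in experiment 2 and 0.37 ± 0.51 in experiment 1 (SD, n = 6 each), and the difference of 0.72 (SE 0.30, 95% interval 0.05 to 1.38) did not pass, with a limma adjusted p of 0.214. It passed in 1 of 24 alternatives (0.0476, with normexp and quantile normalization).

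Usp17la did not separate the experiments. Its means were 0.35 ± 0.93 in experiment 2 and 0.24 ± 0.56 in experiment 1 (SD, n = 6 each). The difference was 0.11 (SE 0.43, 95% interval -0.83 to 1.05, limma adjusted p 0.907), an interval that runs from 0.562-fold to 2.07-fold.

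In all, 2 of 5 tested member probes were called higher in experiment 2 and 0 lower, where 3.95% of tested probes were called higher and 4.15% lower. The members were chosen with earlier results of these data known, so these shares are a description. The median difference over all tested probes was 0.19, and 0.00 with the percentile over all probes. That scaling took the count of member calls to 0.

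**Figure D3:**
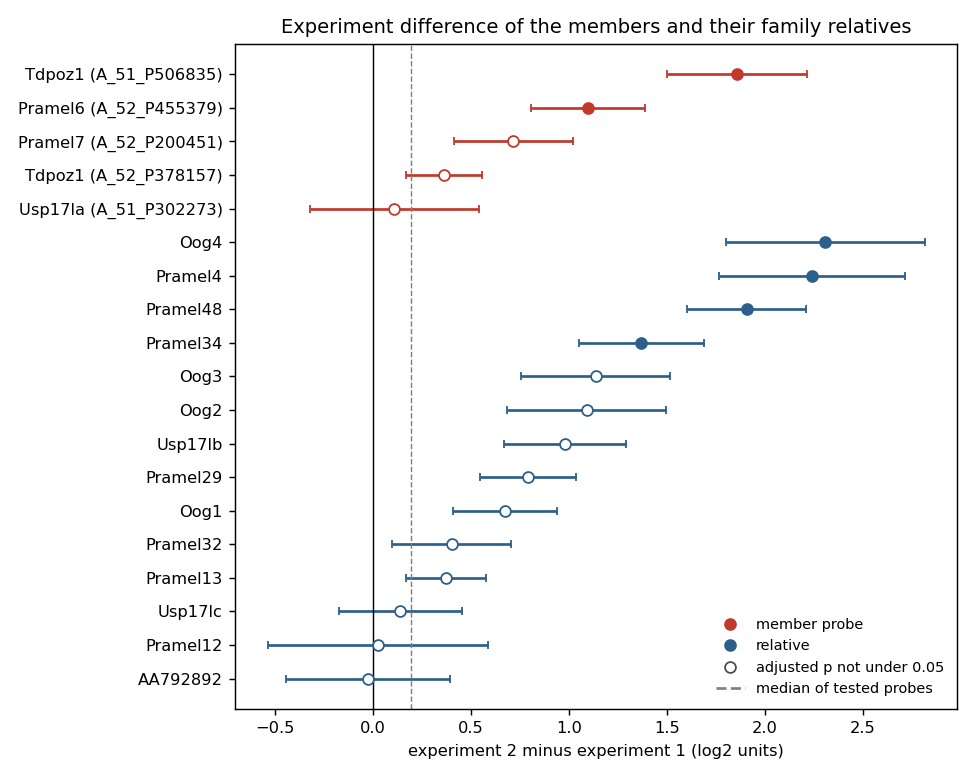
Experiment 2 minus experiment 1 (log2 units, x axis) for the 5 tested member probes (red) and tested Usp17l and Pramel relatives (blue), with SE bars from the limma fit. Filled circles have an adjusted p under 0.05 and the dashed line is the median of tested probes, 0.19. Tdpoz1 (1.86) and Pramel6 (1.10) lead the members, and Oog4, Pramel4, Pramel48 and Pramel34 are filled among the relatives.

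Markers of some other cells moved with the experiments. The summed scaled level of oviduct epithelium markers was 0.154 to 1.60 in experiment 2 and 8.22 to 59.8 in experiment 1. Stromal markers summed to 0.0870 to 0.621 in experiment 2 and 4.35 to 41.6 in experiment 1, and macrophage and blood markers to 0.0240 to 0.301 in experiment 2 and 4.59 to 223 in experiment 1. Of the tested genes, 5 of 9 oviduct, 7 of 7 stromal and 1 of 4 macrophage and blood markers were called lower in experiment 2 (limma adjusted p under 0.05), and 0 were called higher. Whether called or not, 3 of the 9 oviduct markers had a difference above 0: Epcam (0.62), Pax8 (0.54) and Cdh1 (0.11). In the stromal and the macrophage and blood lists 0 had. The 1 called macrophage and blood marker was Lyz2. Cd14 (-0.77), Cd68 (-0.37) and Hba-a1 (-1.48) did not pass (limma adjusted p 0.377, 0.686 and 0.322). These genes were named after their values were seen, and bright probes carry the sums. The 2 other marker lists did not go this way. Cumulus and granulosa markers summed to 0.0216 to 0.780 in experiment 2 and 0.0208 to 0.599 in experiment 1. Sperm markers summed to 0.0784 to 1.13 in experiment 2 and 0.121 to 0.579 in experiment 1. In each of these lists 3 genes were tested, all 3 had a difference above 0 and 0 were called. Ovgp1 (oviductal glycoprotein) and Col1a1 (a fibroblast collagen) were at the floor in all 6 cells of experiment 2, and the macrophage lysozyme Lyz2 averaged -3.97 ± 0.38 in experiment 2 and 4.18 ± 2.02 in experiment 1 (SD, n = 6 each). Their part in the differences of Tdpoz1 and Pramel6, and of the gene groups that follow, was not tested.

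Some relatives of the PRAME family were higher in experiment 2, as Pramel6 was. Of 20 listed relatives, 13 had a probe and 12 were tested. Of these, 4 were called higher in experiment 2 and 0 lower by the limma test, against 3.95% and 4.15% of all tested probes. This list and those that follow were chosen with earlier results of these data known. Their counts beside the shares of all tested probes are therefore descriptions. Called or not, 11 of the 12 had a difference above 0, with AA792892 at -0.03. The median difference was 0.94, against 0.19 over all tested probes, of which the share above 0 was not counted. The 4, named after their values were seen, were Oog4 (4.96-fold, adjusted p 0.0162), Pramel4 (4.73-fold, 0.0133), Pramel48 (3.75-fold, 0.00303) and Pramel34 (2.59-fold, 0.0213). Pramel4 was well above background on 6 arrays of experiment 2 and 3 of experiment 1, the others on all 12. Its experiment 1 values ran from the floor to -2.61, so its fold depends on the floor, and with the deposited value table the log2 difference was 3.11 with an adjusted p of 0.0680. Under 4 other scalings or sources the median stayed at 0.79 to 1.27 with 11 or 12 of 12 above 0, but with the percentile over all probes 0 passed. The oogenesin genes (Oog1 to Oog4) are known from mouse oocytes.

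The oogenesins Oog1 and Oog3 did not pass between experiments. Oog1 averaged 5.85 ± 0.33 in experiment 2 and 5.18 ± 0.51 in experiment 1 (SD, n = 6 each), with a limma adjusted p of 0.170. Oog3 averaged 4.06 ± 0.30 in experiment 2 and 2.92 ± 0.90 in experiment 1 (SD, n = 6 each), with a limma adjusted p of 0.0996 between experiments. Between embryos Oog3 was the 1 of 12 tested relatives that passed (limma adjusted p 0.0456), where 1.4% of all tested probes passed. Its means were 3.97 in pair L, 2.01 in pair I and 2.78 in pair D of experiment 1.

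For the Tdpoz proteins, the partner genes of the Cul3 ligase were examined. Of 6 tested, 2 were called higher in experiment 2 and 0 lower, against 3.95% and 4.15% of all tested probes. Called or not, 4 of the 6 had a difference above 0, and the median difference was 0.27, near the 0.19 over all tested probes. Cul3, the scaffold, was 2.47-fold higher (limma adjusted p 0.00954) and Cand1, which exchanges its substrate adaptors, 1.94-fold (0.0469). Spop, the adaptor of the same domain arrangement, averaged -1.56 ± 0.85 in experiment 2 and -1.16 ± 0.59 in experiment 1 (SD, n = 6 each), a difference of -0.40 that did not pass. With the percentile over all probes the differences were 1.25 in Cul3 and 0.90 in Cand1, against 1.31 and 0.96 with the scaling used here, but neither passed (adjusted p 0.306 and 0.565). Cand1 also did not pass with the deposited value table (0.126).

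For Pramel7, 12 genes of the Cul2 ligase and of DNA methylation were tested, of which 1 was called higher and 1 lower in experiment 2. Over all tested probes 3.95% were called higher and 4.15% lower. Uhrf1, the factor that brings the maintenance methyltransferase to DNA, was at -1.51 ± 0.50 in experiment 2 and 0.25 ± 0.30 in experiment 1 (SD, n = 6 each). That was a 3.38-fold lower level in experiment 2 (limma adjusted p 0.00211). The related Uhrf2 was 4.27-fold higher (0.0258). These are RNA levels, which do not show degradation of the Uhrf1 protein. Cul2 was well above background on 3 arrays and was not tested. Of 6 tested genes of the LIF and Stat3 pathway, 1 passed: Stat3, 6.06-fold lower in experiment 2 (0.0322), and the receptor chain Il6st was at -0.77 ± 0.43 in experiment 2 and -1.74 ± 0.55 in experiment 1 (SD, n = 6 each, 0.136). Uhrf1, Uhrf2 and Stat3 were named after their values were seen. With the percentile over all probes none of the 3 passed (adjusted p 0.342, 0.305 and 0.247), while their log2 differences of -1.82, 1.99 and -2.44 stayed near those of the scaling used here (-1.76, 2.09 and -2.60). With the deposited value table Uhrf1 (0.0518) and Stat3 (0.0790) did not pass either.

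Of 11 other tested genes of genome activation, 2 were called higher in experiment 2 and 0 lower, against 3.95% and 4.15% of all tested probes. Called or not, 10 of the 11 had a difference above 0. The median difference was 0.64, against 0.19 over all tested probes, of which the share above 0 was not counted. The called genes were Tcstv1 (4.31-fold, limma adjusted p 0.000193) and Tcstv3 (2.74-fold, 0.00477), both genes of the 2-cell stage. With the percentile over all probes neither passed (0.215 and 0.542), though the log2 differences were 2.05 and 1.39, against 2.11 and 1.45 with the scaling used here. Both passed under the other 3 scalings or sources.

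The third comparison set cell 2 against cell 1 of the same embryo. Usp17la was higher in cell 2 in 5 of 6 embryos, which at least 5 of 6 embryos showed in 6.03% of tested probes, by 0.21 on average (SE 0.11, 95% interval -0.05 to 0.48). The other mean differences were 0.26 in Tdpoz1 A_51_P506835 (4 of 6 embryos higher), 0.29 in Pramel7 (3 of 6) and 0.19 in Pramel6 (3 of 6, and 1 tied at the floor). None of the 5 member probes passed in the limma test with embryo as a block, whose adjusted p was 0.674 to 0.819 and unadjusted p 0.101 to 0.497, and 0% of all tested probes passed (4.41% at an unadjusted p under 0.05).

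The sign of these means turned with the percentile over all probes. It was kept in 23 of 24 alternatives in Usp17la, Tdpoz1 A_51_P506835 and Pramel7, and in 21 of 23 in Pramel6. Such a scaling moves all probes of an array above the floor by the same amount and says nothing particular to the members. The median of all tested probes was 0.11 higher in cell 2, and 0.15 lower (-0.15) with the percentile over all probes, which turned the mean differences of the 4 genes to -0.18 to -0.30. Individual twins differed more than the mean did. Tdpoz1 was 1.29 higher in cell 2 of pair I of experiment 1, Pramel7 was 0.85 higher in cell 2 of pair L and Pramel6 0.73 higher in cell 2 of pair L. Pramel7 was lower in cell 2 in pairs G, D of experiment 1 and I, by 0.07 to 0.19. No member passed for the interaction of cell number with experiment in limma (adjusted p 0.999), where 0% of all tested probes passed and 5.27% had an unadjusted p under 0.05.

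**Figure D4:**
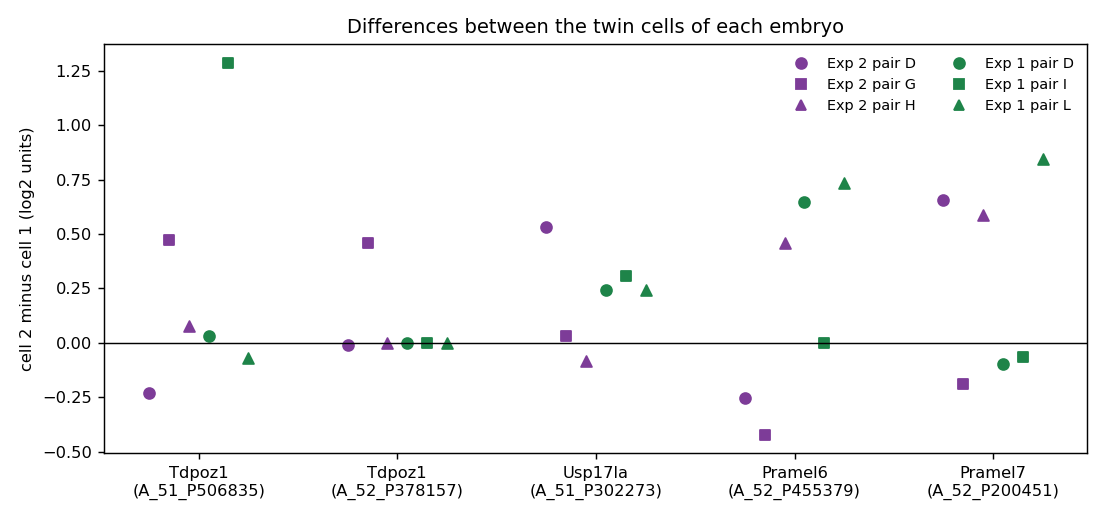
Cell 2 minus cell 1 (log2 units, y axis) in each of 6 embryos for the 5 tested member probes (x axis), experiment 2 in purple and left of experiment 1 in green within each probe. Usp17la lies above 0 in 5 of 6 embryos, and the largest difference is that of Tdpoz1 in pair I of experiment 1, 1.29.

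The members did not vary as 1 group across cells. With values centred within experiments, Usp17la and Pramel7 had a Pearson r of -0.45 over the 12 cells (Spearman -0.43, and -0.42 without the 2 farthest cells). Usp17la and Pramel6 had -0.49, which was -0.00 without the 2 farthest cells. Pramel7 and Pramel6, the genomic neighbours, had 0.42, and 0.07 without them. Tdpoz1 (A_51_P506835) and Usp17la had 0.04, and Tdpoz1 and Pramel6 0.36. Twins share an embryo and probes share the array's scaling, so these are descriptions.

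Among 5556 other probes well above background on all 12 arrays, the genes most alike in pattern to Usp17la were Ldhb (Pearson r 0.92 over 12 cells, centred within experiments) and Fam118b (0.89). For Tdpoz1 they were Hsf1 (0.90) and Taf1d (0.88), for Pramel7 Pex16 (0.89) and Nop56 (0.87), and for Pramel6 Ppp1r14b (0.90). No gene named here appeared for more than a single member.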

How the data were processed

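Intensity values were deposited by the authors as 12 scanner files and as a value table; per the file headers, Agilent Feature Extraction, version 9.1.3.1, read the scans. In that table, deposited intensity equals the processed signal divided by 1 constant per array, with low values raised to a floor. The labels name Cy3 for every cell, but the signal of experiment 1 sat in Cy5.

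Outlier spots were left out (78 missing values), spots of a probe averaged, and signals divided by the array's 75th percentile over 5858 probes well above background on all arrays, since under 50% of spots were detected on 9 arrays. Values were raised to a floor of 0.0574, taken from the array whose dimmest well-above-background signal was highest, and log2 was taken. limma 3.58.1 (R 4.3.3) tested 16694 probes: a moderated F over embryos within experiments, cell 2 minus cell 1 and the interaction of cell and experiment, both with a fixed embryo block, and experiment 2 minus experiment 1 with a random embryo block (correlation 0.346). Calls had a Benjamini-Hochberg adjusted p under 0.05 over all tested probes. Separate embryos are the replicates between experiments. Each list gene was represented by its brightest probe.

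Members and lists were chosen with earlier results of these data known, so their counts of calls beside those of all tested probes are descriptions. All member probes were named, with up to 4 genes of each list in order of mean level and, for likeness, the 2 genes of highest Pearson r, of which 1 is not reported here for Pramel6. Others are said to be named after their values were seen. Equal cell numbers do not pair cells across embryos (correlation of deviations -0.08 to 0.26 over 15 embryo pairs, 3 above 0.1). Tests were checked on simulated data drawn independently for each cell, without twin correlation, array effects or a floor. For that reason the check cannot show the error rates of the tests in these data. That check recovered no simulated interaction, so the interaction test says little. Alternatives covered scaling, background, floor, filter, left-out cells, slide and pairing. Promoters came from RefSeq (GRCm38.p6), and python 3.11.15 and scipy 1.17.1 were also used.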

Additional observations from a re-analysis of the deposited data

Results flagged for a closer look

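Tdpoz1 (A_51_P506835) had 1 cell far from the others. In experiment 1, pair I cell 1 was at -4.09 log2 units while the nearest cell, its twin, was at -2.80, a gap that took up 0.672 of the range of the 6 cells, more than Dixon's critical value for 6 samples. Such a gap was looked for in 9 groups of 6 cells, of which 1 had it. Chance gives it in about 1 of 20 groups of independent, normally distributed values. The cells here are twins, and some values were raised to the floor, so that rate need not hold. The cell was well above background for this probe, and the cause was not tested.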

How the results depend on the processing

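The count of member probes called between embryos was 1. It was 0 with the percentile over all probes, with normexp and quantile, with the deposited value table, with a lower common floor, with the filter at 12 arrays, within shared slides and in experiment 1 alone, 2 with a floor per array and with the filter at 3 arrays, and 0 to 2 with 1 cell left out. The count between experiments was 2. It was 0 with the percentile over all probes, with a floor per array and with embryo means, 1 with the deposited value table, a lower common floor, the filters at 3 and 12 arrays, no filter and slide as the random block, and 1 to 2 with 1 cell left out. The counts for cell number and for its interaction were 0 in all 24 and 21 alternatives. With cell number as a replicate block the embryo count was 0 (Usp17la adjusted p 0.0782) and the experiment count 1 (Pramel6 adjusted p 0.0521), and without the replicate block the cell count stayed 0. Over all tested probes, calls ranged from 0 to 4356 between embryos and from 173 to 1983 between experiments over the alternatives, against 234 and 1353. Signs turned in these results. With the percentile over all probes, pair H minus pair D in Pramel6, -0.90, was 1.43, and cell 2 minus cell 1 was -0.30 in Usp17la, -0.25 in Tdpoz1 A_51_P506835, -0.22 in Pramel7 and -0.18 in Pramel6. The Pramel6 embryo difference was 0.41 with quantile normalization and 0.30 with normexp. Tdpoz1 A_52_P378157 turned to -0.034 between experiments with a floor per array and to -0.0019 between cells without either cell of pair G of experiment 2 (up to 0.092 with other cells left out), and it gave no value with the percentile over all probes. Usp17la between experiments was -0.054 and -0.034 without cell 1 and cell 2 of pair H (up to 0.22 with other cells left out), and Pramel6 between cells was -0.074 in experiment 2 alone. The causes were not tested. Signal over background limits Pramel6 and the dim Tdpoz1 probes.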
